A study of Mus musculus with 12 samples.

Results

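A set of 10 genes of sphingolipid and ceramide metabolism was followed across 4 treatments of RAW264.7 cells, a mouse macrophage line. They are Sptlc1, Sptlc2, Kdsr, Degs1, Sgms1, Ugcg, Smpd1, Asah1, Sphk1 and Sgpl1. They were taken by gene name, with earlier results of these data known. All 10 were on the array, on 14 probes, out of 34797 gene names on 55681 probes. Each of the 14 probes was well above background on all 12 arrays, so all 10 genes entered the tests, which covered 17595 genes.

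The cells were kept for 24 h in medium with fatty acid-free albumin. Control cells received neither agent, FABP4 cells received 200 nM recombinant FABP4 (fatty acid binding protein 4, also called aP2), palmitic acid cells received 0.2 mM palmitic acid, and cells of the fourth group received both at these doses. Each group had 3 arrays, numbered 1 to 3 as in the labels. The comparisons ask what palmitic acid did without and with FABP4 (the 3 palmitic acid arrays against the 3 controls, and the 3 arrays with both agents against the 3 FABP4 arrays), what FABP4 did without and with palmitic acid, and whether these effects depended on each other. The 4 simple comparisons share arrays with one another. The labels do not say if replicate arrays stem from separate cultures; the p-values then reflect the spread between these arrays alone, and that spread may be technical.

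Sphingolipid synthesis starts at the endoplasmic reticulum, where serine palmitoyltransferase joins serine to palmitoyl-CoA, the activated form of palmitic acid. Reduction, acylation and desaturation lead to ceramide, which is turned into sphingomyelin or glycosphingolipids, or is broken down to sphingosine. Sphingosine kinases phosphorylate sphingosine to sphingosine 1-phosphate, a signal that macrophages and other immune cells make and sense, and the lyase Sgpl1 degrades it irreversibly.

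Sphk1, which encodes sphingosine kinase 1, was the member that rose with palmitic acid, and it was measured by 2 probes that lie near each other on chromosome 11. Their first 30 bases are shown together with those of the 4 further pathway genes called in both palmitic acid comparisons, since these probes carry the changes described here. Each probe has 60 bases, and the intervals are those of the whole probe in the mouse build mm9, as the scanner files give them. The place of the probes within their transcripts was not analysed here.
Sphk1, brighter probe, chr11:116397908-116397967, plus strand: ttgcatatagaagacactccccattgctct
Sphk1, dimmer probe, chr11:116397591-116397650, plus strand: aagctgtgcagggccaagtgcacccaaact
Cers4, chr8:4523988-4524047, plus strand: ccaaggctgtagcttgggggctgtggggag
Cers5, chr15:99566036-99566095, minus strand: gcagccactggttgcgctgttaatgatttt
Ormdl3, chr11:98442608-98442667, minus strand: cttctggtctttctaagcaaagtgtgaata
B4galt5, brighter probe, chr2:167124056-167124115, minus strand: gttttaaaaggtgccaggggtacatttttg
The Sphk1 probes are 257 bases apart and share no base, so they are separate readings of the same gene.

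The arrays were of like quality: each held 59305 spots that were not controls, of which 42.8% to 46.7% were well above background and 0 were saturated. The 75th percentile of intensity lay between 250.1 and 315 units, and all levels given here are log2 intensity minus that percentile of the same array. The 12 arrays came from 2 slides. Slide 1 held the 3 controls and FABP4 array 1, and slide 2 held the other 8 arrays, so palmitic acid without FABP4 is compared wholly across slides, while FABP4 with palmitic acid is compared wholly within slide 2. On slide 2, FABP4 arrays 2 and 3 and palmitic acid arrays 1 and 2 lay in row 1 of the slide. Palmitic acid array 3 and the 3 arrays with both agents lay in row 2. Row was not in any model, and its part in the values was not tested. Of 10 macrophage markers, 9 were well above background on all arrays and 1, Mertk, on none. Among markers of other cells, 1 of 5 for adipocytes, 1 of 5 for fibroblasts, 3 of 5 for neutrophils, 1 of 3 for B cells and 2 of 3 for T cells were well above background on all arrays.

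**Figure D1:**
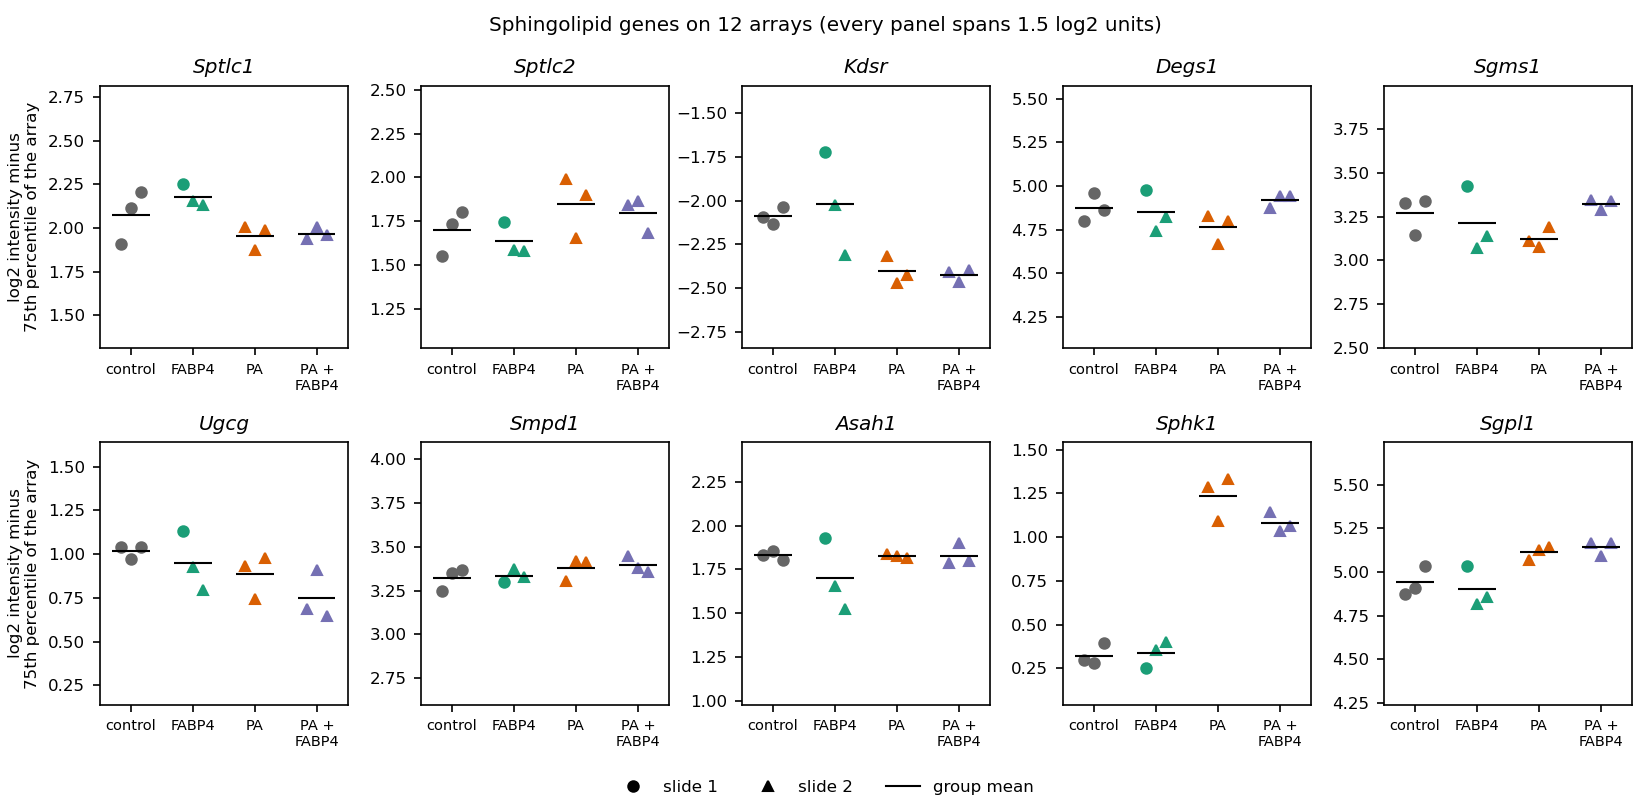
Level of each of the 10 genes on each of the 12 arrays, as log2 intensity minus the array's 75th percentile, by group (PA, palmitic acid). Points are single arrays, circles on slide 1 and triangles on slide 2, and bars are group means; every vertical axis spans 1.5 log2 units. Sphk1 lies between 0.25 and 0.40 on the 6 arrays without palmitic acid and between 1.04 and 1.33 on the 6 arrays with it.

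Palmitic acid raised the Sphk1 transcript by 0.91 log2 units without FABP4 and by 0.74 with it, and it was the only one of the 10 genes past the threshold in either comparison. Without FABP4, Sphk1 rose and the other 9 genes did not pass, beside 8.61% of all tested genes called. With FABP4, Sphk1 again was the 1 gene of 10 that passed, beside 3.81% of all tested genes. The threshold throughout is 0.05 on the limma p, adjusted by Benjamini and Hochberg's method over all 17595 genes.

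The RNA is that of whole cultures, in which a change in the share of cells with a transcript and a change in RNA per cell cannot be told apart. On the brighter probe, the level of Sphk1 was 0.30, 0.28 and 0.39 on the control arrays and 0.25, 0.36 and 0.40 on the FABP4 arrays. It was 1.29, 1.09 and 1.33 on the palmitic acid arrays and 1.14, 1.04 and 1.06 on the arrays with both agents. Every array with palmitic acid lay above every array without it, and the control and FABP4 arrays overlapped. Without FABP4 the log2 difference was 0.91 ± 0.07 (SE, 3 arrays a group), a 1.89-fold rise, with an adjusted p of 1.56e-04 by limma. With FABP4 it was 0.74 ± 0.07, a 1.67-fold rise, with an adjusted p of 5.37e-04.

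The dimmer Sphk1 probe gave levels of -2.13, -2.32 and -2.34 in the controls, -2.39, -2.11 and -2.12 with FABP4, -1.59, -1.31 and -1.27 with palmitic acid, and -1.47, -1.92 and -1.58 with both. Its arrays with palmitic acid again all lay above those without. The difference without FABP4 was 0.87 ± 0.13, with an adjusted p of 0.00688 over 23909 probes by limma. With FABP4 it was 0.55 ± 0.13 and did not pass, with an adjusted p of 0.0629. Pearson's r between the probes over the 12 arrays was 0.92, as a description of arrays that share slides and treatments.

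Slide moved with the comparison without FABP4, and Sphk1 was therefore also read with slide in the model. FABP4 was the only group with arrays on both slides, so the slide term of every gene rests on FABP4 array 1 against FABP4 arrays 2 and 3. With slide as a fixed block, the Sphk1 difference was 0.79 ± 0.12 without FABP4, with an adjusted p of 0.0250, while the count of all called genes dropped from 1515 to 138. On the arrays of slide 2 alone, where the 3 arrays with both agents stand beside FABP4 arrays 2 and 3, the difference with FABP4 was 0.70 ± 0.08, with an adjusted p of 0.0120. These FABP4 arrays lie in row 1 of the slide and the arrays with both agents in row 2. Slide 2 alone thus does not separate palmitic acid from row in that comparison, for Sphk1 as for every other gene. FABP4 arrays 2 and 3, at 0.36 and 0.40, share slide 2 with all 6 palmitic acid arrays, the lowest of which was at 1.04. Leaving out each array in turn gave differences from 0.87 to 0.99 without FABP4 and from 0.70 to 0.77 with it, all past the threshold.

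**Figure D2:**
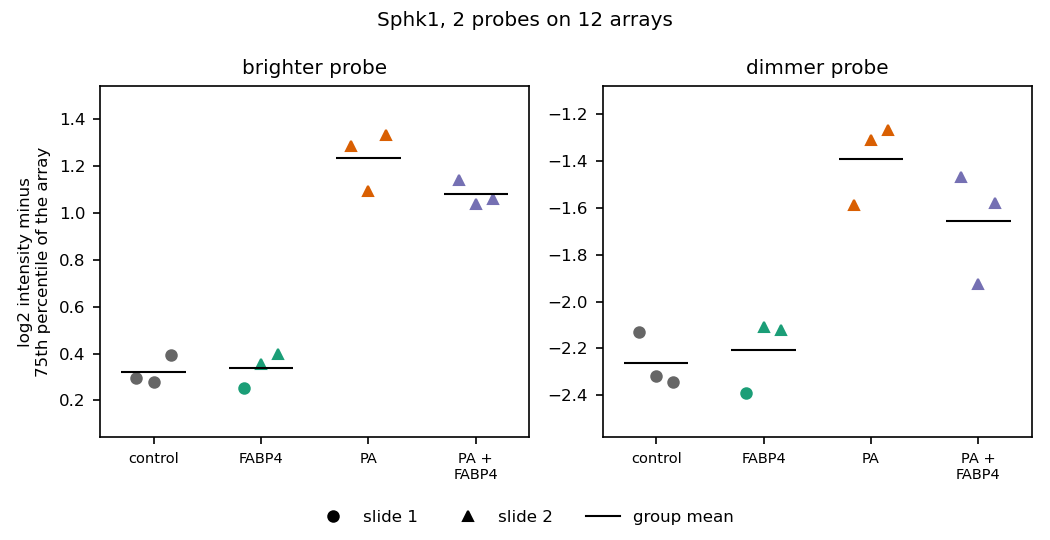
Level of Sphk1 on each array by its 2 probes, as log2 intensity minus the array's 75th percentile (PA, palmitic acid). Points are single arrays, circles on slide 1 and triangles on slide 2, and bars are group means. On both probes the 6 arrays with palmitic acid lie above the 6 without; on the dimmer probe array 2 with both agents, at -1.92, comes nearest to the arrays without it.

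The subunits of serine palmitoyltransferase, the enzyme that uses palmitoyl-CoA, did not pass in any comparison. Sptlc1 had a mean level of 2.08 ± 0.15 (SD, n = 3) in the controls, 2.18 ± 0.06 with FABP4, 1.96 ± 0.07 with palmitic acid and 1.97 ± 0.04 with both. Its log2 difference under palmitic acid was -0.12 ± 0.08 (SE) without FABP4 and -0.21 ± 0.08 with it, with adjusted p-values of 0.344 and 0.156 by limma. With FABP4 its arrays did not overlap, the lowest FABP4 array being at 2.13 and the highest with both agents at 2.00. Groups of 26.3% of all tested genes did not overlap in that comparison.

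Sptlc2, the other main subunit, had means of 1.70 ± 0.13, 1.64 ± 0.09, 1.85 ± 0.18 and 1.80 ± 0.10 in the same order of groups. Its difference was 0.15 ± 0.10 without FABP4 and 0.16 ± 0.10 with it, and the groups overlapped in both. A dimmer Sptlc2 probe gave 0.01 ± 0.12 and 0.20 ± 0.12, neither of which passed.

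Kdsr, the reductase that acts on the product of serine palmitoyltransferase, was at -2.09, -2.13 and -2.03 in the controls and at -1.72, -2.02 and -2.31 with FABP4. It was at -2.32, -2.47 and -2.42 with palmitic acid and at -2.41, -2.47 and -2.40 with both. The palmitic acid arrays lay below all arrays without it, though FABP4 array 3 came within 0.0076 of the highest of them. The differences of -0.32 ± 0.12 without FABP4 and -0.41 ± 0.12 with it did not pass, with adjusted p-values of 0.124 and 0.0935 by limma. Its single probe is printed 10 times on each array, and the SD between those spots was 0.12 to 0.26 with a median of 0.17, so the level of 1 array is an average of repeated spots.

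The Kdsr result changed with slide, with the FABP4 arrays, with the scaling and with the groups in the fit. With slide as a fixed block, the difference without FABP4 was 0.13 ± 0.13, the opposite sign. On slide 2 alone, where the groups compared lie in different rows, the difference with FABP4 was -0.26 ± 0.09 with an adjusted p of 0.215. Without FABP4 array 3, the adjusted p was 0.0409 for palmitic acid without FABP4 and 0.0161 with it, where the difference was -0.55. Without FABP4 array 1, it was 0.0242 for palmitic acid without FABP4, at the same difference of -0.32. Kdsr also passed without FABP4 in the fit of only the groups compared, with an adjusted p of 0.0358, and with FABP4 when the percentile was taken over detected probes, at -0.45 with an adjusted p of 0.041.

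Degs1, the desaturase that forms ceramide, had means of 4.88 ± 0.08, 4.85 ± 0.12, 4.76 ± 0.09 and 4.92 ± 0.04 in the control, FABP4, palmitic acid and combined groups. Palmitic acid gave -0.11 ± 0.07 without FABP4 and 0.07 ± 0.07 with it, and neither passed. Its groups overlapped in both palmitic acid comparisons.

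The enzymes that draw on ceramide did not pass either. Sgms1, a sphingomyelin synthase, had means of 3.27 ± 0.11, 3.21 ± 0.19, 3.13 ± 0.06 and 3.32 ± 0.03, and palmitic acid gave -0.15 ± 0.09 without and 0.11 ± 0.09 with FABP4. Its dimmer probe gave -0.09 ± 0.09 and 0.07 ± 0.09. Ugcg, which makes glucosylceramide, had means of 1.02 ± 0.04, 0.95 ± 0.17, 0.88 ± 0.12 and 0.75 ± 0.14, and palmitic acid gave -0.13 ± 0.10 and -0.20 ± 0.10, with adjusted p-values of 0.424 and 0.272 by limma. The groups of both genes overlapped in each palmitic acid comparison.

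The lysosomal enzymes of breakdown, Smpd1 and Asah1, did not pass, and of the 10 genes Smpd1 had the narrowest intervals. Smpd1, the acid sphingomyelinase, had means of 3.32 ± 0.07, 3.33 ± 0.04, 3.38 ± 0.07 and 3.40 ± 0.05. Its difference was 0.06 ± 0.05 under palmitic acid in both comparisons, with 95% confidence intervals of -0.06 to 0.18 in each. Asah1, the acid ceramidase, had means of 1.83 ± 0.03, 1.70 ± 0.21, 1.83 ± 0.01 and 1.83 ± 0.06, so its spread was widest in the FABP4 group. Palmitic acid gave -0.0035 ± 0.09 without FABP4 (95% confidence interval -0.20 to 0.19) and 0.13 ± 0.09 with it (-0.07 to 0.32) on the brighter Asah1 probe, and -0.0076 ± 0.10 and 0.10 ± 0.10 on the dimmer one.

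Sgpl1, the lyase that ends the pathway, was at 4.88, 4.91 and 5.04 in the controls, 5.03, 4.82 and 4.86 with FABP4, 5.07, 5.13 and 5.14 with palmitic acid, and 5.17, 5.09 and 5.16 with both. All 6 arrays with palmitic acid lay above the 6 without, by 0.03 at the nearest. The differences of 0.17 ± 0.07 and 0.24 ± 0.07 did not pass, with adjusted p-values of 0.130 and 0.0822 by limma. Sgpl1 did pass with FABP4 with slide as a fixed block, at 0.30 ± 0.06 and an adjusted p of 0.0264. It passed on slide 2 alone, at 0.30 ± 0.05 and 0.0467, and without FABP4 array 1, at 0.30 with an adjusted p of 0.0265. By design these fits give the same difference, arrays with both agents against FABP4 arrays 2 and 3, and are not separate readings. Those FABP4 arrays lie in row 1 and the arrays with both agents in row 2. The difference thus does not separate palmitic acid from row. With slide as a random block, Sgpl1 passed with FABP4 at 0.27 with an adjusted p of 0.0456. Without FABP4, Sgpl1 passed with no scaling between arrays, at 0.35 with an adjusted p of 0.032, and with the percentile taken over detected probes, at 0.19 with an adjusted p of 0.043.

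**Figure D3:**
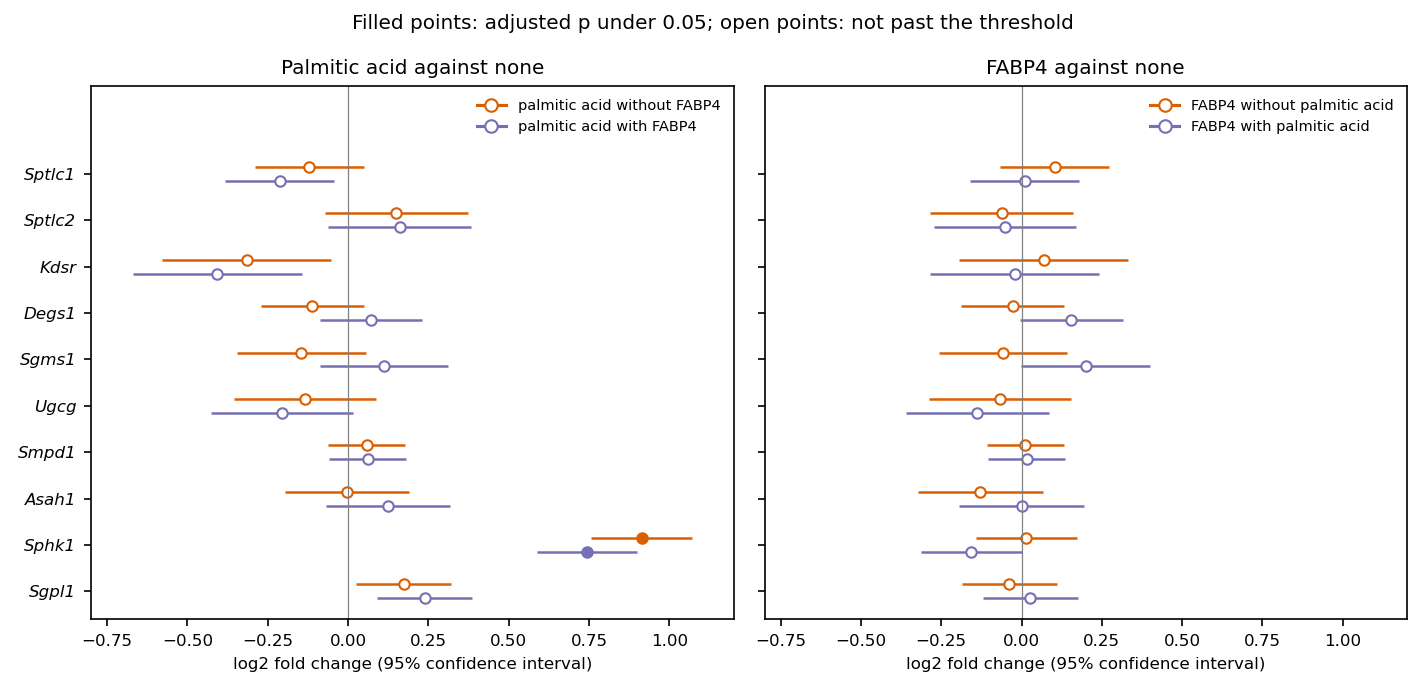
Log2 fold change of the 10 genes under palmitic acid (left) and under FABP4 (right), each without and with the other agent, with 95% confidence intervals from limma. Filled points passed an adjusted p of 0.05; only the Sphk1 points under palmitic acid, at 0.91 and 0.74, are filled.

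As a group the 10 genes did not move one way under palmitic acid. Without FABP4, 4 differences were above 0 and 6 below, with a median of -0.06 beside 0.0005 over all tested genes, and with no scaling between arrays, as with slide as a fixed block, 9 were above 0 and 1 below. With FABP4, 7 were above 0 and 3 below (5 and 5 with no scaling), with a median of 0.09 beside 0.05. The member median without FABP4 was 0.16 with slide as a fixed block and 0.12 with no scaling, beside 0.04 and 0.17 over all tested genes, and it was -0.03 without control array 2, -0.04 without control array 3 and -0.03 without palmitic acid array 2. With FABP4 it was 0.18 with the fixed block, on slide 2 alone or without FABP4 array 1, beside 0.06 over all tested genes. By design these settings give the same differences, so they are not separate readings. The member median with FABP4 was 0.06 without FABP4 array 3, 0.05 with quantile normalization or the percentile over detected probes, and -0.0061 with no scaling. Groups did not overlap for 3 members without FABP4 (Kdsr lower, Sphk1 and Sgpl1 higher), beside 33.9% of all tested genes, and for 4 with FABP4, the same 3 and Sptlc1 (lower), beside 26.3%. The genes with an unadjusted p under 0.05 were these same members, 3 without FABP4 beside 26.5% of all tested genes and 4 with it beside 20.9%.

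FABP4 called none of the 10 genes, either without or with palmitic acid. Without palmitic acid the differences ran from -0.13 for Asah1 to 0.10 for Sptlc1, with adjusted p-values of at least 0.810 by limma, beside 0.0171% of all tested genes called (3 genes). With palmitic acid they ran from -0.16 for Sphk1 to 0.20 for Sgms1, with adjusted p-values of at least 0.806, beside 0.0% called. The count of members at an unadjusted p under 0.05 was 0 in each, where 7.24% and 5.88% of all tested genes were. Without palmitic acid the control and FABP4 arrays overlapped for all 10 genes, beside 10.4% of all tested genes whose groups did not.

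Sgms1, Degs1 and Sphk1 came nearest to that line with palmitic acid present, in a comparison that lies within slide 2 but partly across its rows. Sgms1 was at 3.11, 3.08 and 3.19 with palmitic acid and at 3.34, 3.29 and 3.34 with both agents, a difference of 0.20 ± 0.09 with an unadjusted p of 0.0507 and an adjusted p of 0.806 by limma. Degs1 was at 4.83, 4.67 and 4.80 and then at 4.87, 4.94 and 4.94, a difference of 0.16 ± 0.07 with an unadjusted p of 0.0557. Neither pair of groups overlapped, beside 14.5% of all tested genes that did not. Sphk1 differed by -0.16 ± 0.07 on the brighter and -0.27 ± 0.13 on the dimmer probe, with an unadjusted p of 0.0502 on the brighter one, and its groups overlapped.

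The remaining FABP4 differences of single genes did not pass either. Without palmitic acid they were 0.10 ± 0.08 for Sptlc1, -0.06 ± 0.10 for Sptlc2, 0.07 ± 0.12 for Kdsr, -0.03 ± 0.07 for Degs1, -0.06 ± 0.09 for Sgms1, -0.07 ± 0.10 for Ugcg, 0.01 ± 0.05 for Smpd1, -0.13 ± 0.09 for Asah1, 0.01 ± 0.07 for Sphk1 and -0.04 ± 0.07 for Sgpl1. With palmitic acid they were 0.01 ± 0.08 for Sptlc1, -0.05 ± 0.10 for Sptlc2, -0.02 ± 0.12 for Kdsr, -0.14 ± 0.10 for Ugcg, 0.02 ± 0.05 for Smpd1, 0.0003 ± 0.09 for Asah1 and 0.03 ± 0.07 for Sgpl1. No 95% confidence interval reached beyond 0.40 in size in either comparison.

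Within the FABP4 group the array of slide 1 stood at one end for every member. FABP4 array 1 was above both other FABP4 arrays for 8 of the 10 genes and below both for Smpd1 and Sphk1, where 50.9% of all tested genes had it above both and 30.5% below both. In Kdsr it was at -1.72 beside -2.02 and -2.31, and in Asah1 at 1.93 beside 1.65 and 1.52. The part of slide in the FABP4 values without palmitic acid was not tested beyond the models with slide as a block, which called 0 of the 10 genes there.

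The interaction, which asks whether the palmitic acid difference changed with FABP4, called 0 of the 10 genes, beside 0.0% of all tested genes (6.92% of which, 1218 genes, had an unadjusted p under 0.05). For Sphk1 it was -0.17 ± 0.10, with a 95% confidence interval of -0.39 to 0.05 and an adjusted p of 0.723 by limma. The dimmer Sphk1 probe gave -0.33 ± 0.19, with an unadjusted p of 0.117. For Sgms1 it was 0.26 ± 0.13 and for Degs1 0.18 ± 0.10, with adjusted p-values of 0.713 and 0.719, and for the other 7 genes it lay between -0.09 and 0.13. A smaller Sphk1 rise with FABP4 than without it was therefore not shown.

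A wider list of 62 further sphingolipid genes was read in the same way, of which 61 were on the array and 42 entered the tests. The 19 that were on the array and did not enter were well above background on at most 1 array, among them 4 of the 5 sphingosine 1-phosphate receptors, Sptlc3 and Sgms2. S1pr2 was the receptor that entered, and its differences under palmitic acid of 0.16 and 0.22 did not pass. Palmitic acid without FABP4 raised 1 of the 42 and lowered 3, beside 4.88% and 3.73% of all tested genes. With FABP4 it raised 1 and lowered 3, beside 2.86% and 0.943%. The median difference of the 42 was -0.0086 without FABP4 and 0.07 with it.

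Of 4 tested ceramide synthases, which acylate the sphingoid base, Cers4 and Cers5 fell and Cers2 and Cers6 did not pass. Cers4 was at 0.93, 1.13 and 0.91 in the controls, 0.83, 0.76 and 0.81 with FABP4, 0.28, 0.44 and 0.39 with palmitic acid, and 0.47, 0.51 and 0.57 with both. The groups with palmitic acid lay below those without, and the controls above the FABP4 arrays, beside 10.4% of all tested genes whose control and FABP4 groups did not overlap. Neither the Cers4 difference of -0.19 for FABP4 without palmitic acid nor its interaction of 0.34 passed. Their adjusted p-values were 0.603 and 0.657 over 23909 probes by limma. The Cers4 difference was -0.62 ± 0.07 without FABP4, with an adjusted p of 0.00119 by limma, and -0.28 ± 0.07 with it, at an adjusted p of 0.0488. The second call was close to the threshold and held in 6 of 26 other settings, among the fits that left out 1 array only without control array 2 or palmitic acid array 1. The first was lost with slide as a fixed block, at -0.57 with an adjusted p of 0.0813.

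Cers5 was at 4.08, 4.05 and 4.02 in the controls, 4.15, 4.12 and 4.05 with FABP4, 3.78, 3.78 and 3.78 with palmitic acid, and 3.81, 3.77 and 3.86 with both. Its groups with palmitic acid were apart from those without by more than any spread within a group. The Cers5 differences were -0.27 ± 0.04 and -0.30 ± 0.04, with adjusted p-values of 0.00702 and 0.00658 by limma. With slide as a fixed block the value without FABP4 was -0.21, with an adjusted p of 0.240, and as a random block -0.25, with an adjusted p of 0.0829. On slide 2 alone the value with FABP4 was -0.28, with an adjusted p of 0.0577, and with only the groups compared the adjusted p was 0.103. With no scaling between arrays, the values were -0.10 and -0.40, with adjusted p-values of 0.434 and 0.0883.

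Among regulators of serine palmitoyltransferase, Ormdl3, of a family that restrains the enzyme, rose while Ormdl1, Ormdl2 and the small subunit gene Sptssa did not pass. Ormdl3 was at 3.46, 3.33 and 3.43 in the controls, 3.44, 3.39 and 3.42 with FABP4, 3.58, 3.70 and 3.64 with palmitic acid, and 3.65, 3.66 and 3.63 with both. Each array with palmitic acid was above each without. The Ormdl3 differences were 0.23 ± 0.05 in both comparisons, with adjusted p-values of 0.0194 and 0.0341 by limma. The call without FABP4 was lost in 8 of 25 other settings. These were slide as a fixed block, at 0.27 with an adjusted p of 0.182, slide as a random block, no filter, only the groups compared, and the fits without control array 2 or 3 or palmitic acid array 2 or 3. With FABP4 it was lost in the 7 of 12 fits that left out control array 3, FABP4 array 2 or 3, palmitic acid array 3 or any array with both agents, and in 7 of 14 other settings. These were quantile normalization, the percentile over detected probes, no scaling, no filter, slide 2 alone, the replicate block and only the groups compared. The highest adjusted p was 0.591, with no scaling, where the Ormdl3 difference was 0.13.

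In glycosphingolipid synthesis, 1 of 8 tested genes fell, B4galt5, a lactosylceramide synthase. It was at 6.43, 6.50 and 6.48 in the controls, 6.44, 6.41 and 6.42 with FABP4, 6.05, 6.06 and 6.05 with palmitic acid, and 6.07, 6.09 and 6.08 with both. The arrays fell into a higher set without palmitic acid and a lower set with it. The B4galt5 differences were -0.42 ± 0.04 and -0.34 ± 0.04, with adjusted p-values of 3.54e-04 and 0.00119 by limma, and the first also passed with slide as a fixed block. A dimmer B4galt5 probe gave -0.44 ± 0.18 without FABP4 and 0.04 ± 0.18 with it, neither past the threshold. On that probe the arrays with both agents were at 0.03, -0.02 and 0.70, beside a mean of 0.20 in the FABP4 group. Its SE was larger than the brighter probe's, and whether the B4galt5 probes differ in the presence of FABP4 was not tested. The mean of its probes gave -0.15 there, with an adjusted p of 0.383, with only the groups compared the adjusted p with FABP4 was 0.0542, and with no scaling between arrays the first value was -0.24, with an adjusted p of 0.0697.

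The remaining role groups held no called gene. These were 2 genes of sphingomyelin synthesis and ceramide transfer, 4 sphingomyelinases, 3 ceramidase and ceramide kinase genes, 9 genes of glycosphingolipid breakdown, and 7 genes of sphingosine 1-phosphate metabolism and transport, among them Sphk2, the other sphingosine kinase. Plpp3, a lipid phosphatase named here after its values were seen, differed by 1.18 ± 0.41 without FABP4, with an adjusted p of 0.102 by limma, and by 0.54 ± 0.41 with it, with an adjusted p of 0.468 and overlapping groups. It was dim, with a mean level of -3.83 in the controls. FABP4 called 0 of the 42 genes without or with palmitic acid, and the interaction called 0.

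**Figure D4:**
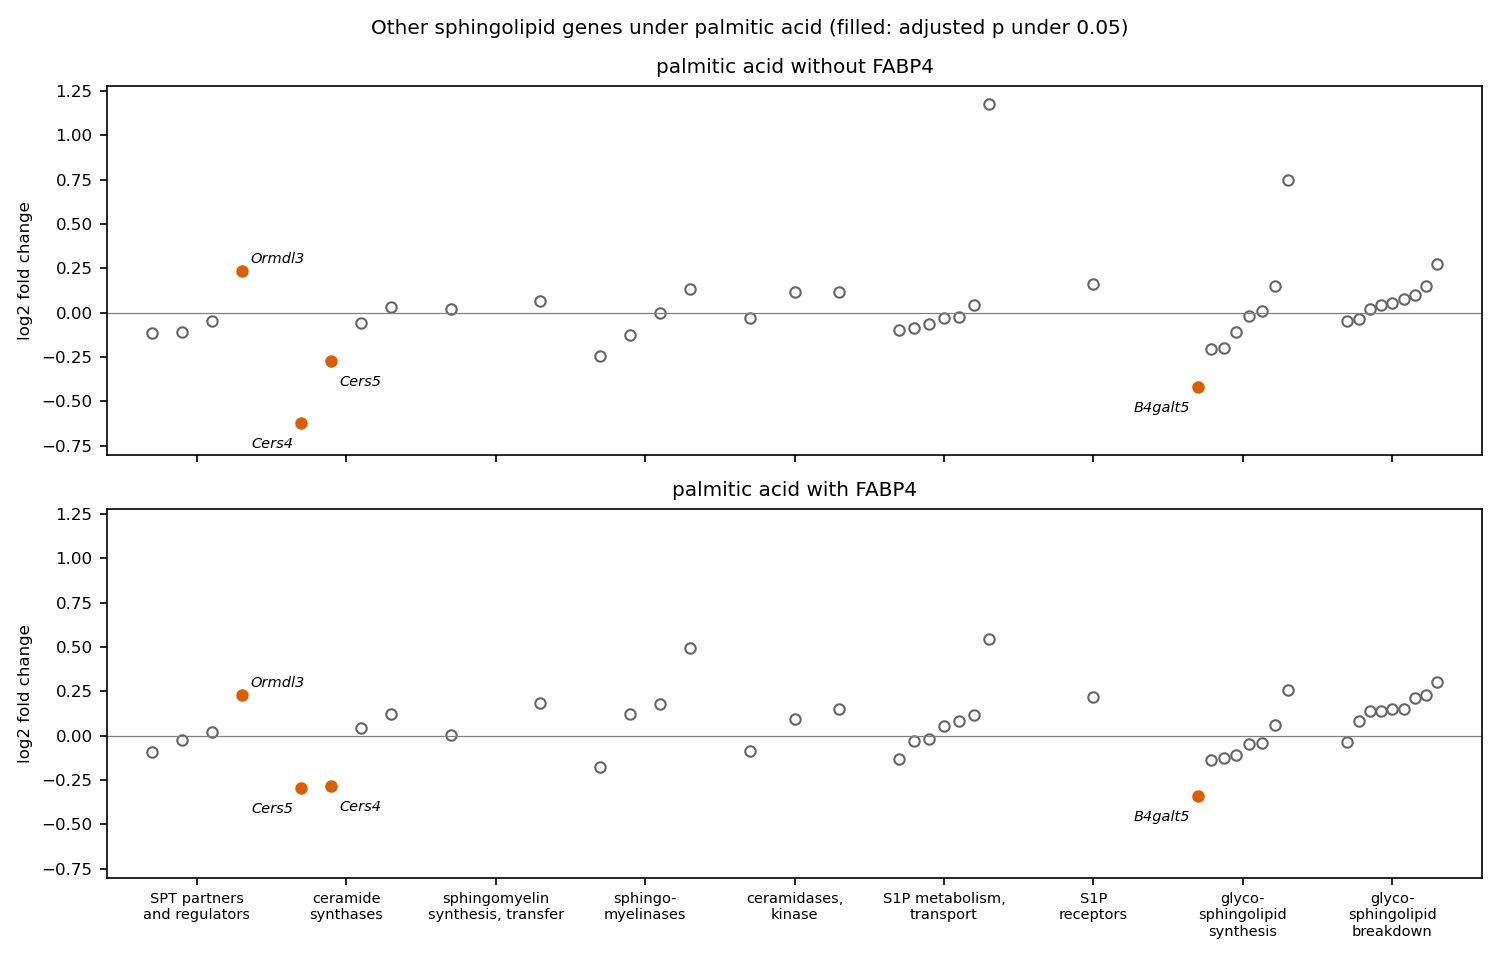
Log2 fold change of the 42 tested further sphingolipid genes under palmitic acid without FABP4 (top) and with FABP4 (bottom), grouped by role. Each point is 1 gene and filled points passed an adjusted p of 0.05: 4 genes at the top, from Cers4 at -0.62 to Ormdl3 at 0.23, and 4 at the bottom.

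Over the 12 arrays, the tested genes whose levels ran closest to Sphk1 were Plin2, a lipid droplet coat protein, with Pearson's r of 0.982, the linker histone gene Hist1h1c (0.981), Bnip3, a mitophagy receptor (0.981), Ndrg1 (0.981) and a probe with no gene name (0.980). The arrays share treatments and slides, so these values describe the shape of the profile. Sphk1 rose less than Plin2, which differed by 1.42 ± 0.06 without FABP4 and 1.37 ± 0.06 with it. Among the other members, r with Sphk1 ran from -0.81 for Kdsr to 0.81 for Sgpl1.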

How the data were processed

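Total RNA from RAW264.7 cells was labelled with Cy3 and hybridised to 12 Agilent 1-colour arrays, 3 per group, groups being taken from the labels. Per the file headers, the deposited intensity values come from Agilent Feature Extraction 10.7.3.1, which subtracts background, and probe positions are of build mm9. The authors' deposited value table, which matches this intensity within 0.005, was an alternative. Further steps of the authors: not given in the sources used here.

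Control and outlier spots were left out and spots of a probe averaged on the log2 scale. Values were log2 intensity minus the array's 75th percentile. Probes that some group had well above background on each of its 3 arrays were kept (23909), and the brightest one of each gene was tested (17595 genes). A single limma 3.58.1 fit (R 4.3.3) to the 12 arrays estimated 4 group means, with Benjamini-Hochberg adjustment. It was checked on simulated data with independent noise and no slide effect, so the check does not cover slide. Python 3.11.15 and matplotlib 3.10.9 were used for tables and figures. Array names of 12 listed genes are older than the symbols given (Cers4 is Lass4 there) and were paired through RefSeq's table. Precision is set by the number of arrays, and the median SE of a log2 difference was 0.084.

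All 10 members were named in every comparison. Of the wider list, the text names at most 2 called genes per role and comparison, by smallest p, and the 5 genes most like Sphk1. Another gene of this pathway is not reported here. Members and lists were chosen with earlier results of these data known. Alternatives covered scaling, background, filter, probe choice, slide, replicate block, groups in the fit and each array left out. Fitting every probe was added after seeing the data.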

Additional observations from a re-analysis of the deposited data

How the results depend on the processing

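Sphk1 kept its direction and stayed past the threshold in all 25 other settings for palmitic acid without FABP4 (0.79 to 1.09) and in all 26 with FABP4 (0.65 to 0.77). These settings read Sphk1 by its brighter probe or by the mean of its probes. Many of them could change the spread and the adjustment but not the Sphk1 difference. These were the filter settings, the replicate block, only the groups compared, every probe, and leaving out an array outside the comparison. The deposited values match the intensity used within 0.005. With FABP4, the fixed slide block, slide 2 alone and leaving out FABP4 array 1 give the same difference. The dimmer Sphk1 probe alone did not pass with FABP4, as given above. The count of members called without FABP4 rose from 1 to 2 with the percentile taken over detected probes, with no scaling and with only the groups compared, and ran from 1 to 2 with each array left out. With FABP4 it rose from 1 to 2 with that percentile, with slide as a fixed or random block and on slide 2 alone, and ran from 1 to 2 with each array left out. The count of further pathway genes without FABP4 went from 4 to 8 with no scaling, 1 with the fixed and 2 with the random slide block, and 3 to 5 with each array left out. With FABP4 it went from 4 to 1 with no scaling or on slide 2 alone, 2 with no filter or with the mean of a gene's probes, 0 with only the groups compared, and 2 to 4 with each array left out. FABP4 and the interaction called 0 members in every setting run. Leaving out the scaling moved the median of all genes to 0.17 for palmitic acid without FABP4, and to 0.13 and -0.09 for FABP4 without and with palmitic acid. Over all tested genes, the called count without FABP4 went from 1515 to 3055 with no scaling, 513 with no filter, 138 with the fixed and 191 with the random slide block, and ran from 655 (without control array 1) to 2714 (without FABP4 array 1) with each array left out. With FABP4 it went from 670 to 159 with no scaling, 185 with no filter, 260 on slide 2 alone and 94 with only the groups compared, and from 247 (without array 1 with both agents) to 601 with each array left out. FABP4 without palmitic acid called 3 genes, 103 with the fixed slide block, and from 0 to 59 (without FABP4 array 1) with each array left out.

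Arrays of the same number did not deviate together (r from -0.08 to 0.17, median 0.0056). The labels do not say if equal numbers mark samples handled together. Deviations from means of 3 arrays cannot decide that. With the replicate number as a block, further pathway genes called with FABP4 went from 4 to 2 and all called genes from 670 to 408.

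Values of members that were not called in either setting changed sign 111 times, and the cause was not tested. They are the following log2 differences.
The percentile over detected probes gave in FABP4 with palmitic acid -0.027 for Sptlc1, -0.021 for Smpd1, -0.037 for Asah1 and -0.0096 for Sgpl1. For palmitic acid without FABP4 it gave 0.013 for Asah1. For the interaction it gave -0.048 for Sptlc2 and -0.054 for Smpd1. Averaging the probes of a gene gave in FABP4 without palmitic acid 0.00011 for Sptlc2. FABP4 with palmitic acid then had 0.099 for Sptlc2. Leaving out the scaling gave in FABP4 without palmitic acid 0.080 for Sptlc2, 0.11 for Degs1, 0.083 for Sgms1, 0.075 for Ugcg, 0.013 for Asah1 and 0.10 for Sgpl1. For FABP4 with palmitic acid it gave -0.12 for Sptlc1, -0.11 for Smpd1, -0.13 for Asah1 and -0.10 for Sgpl1. For palmitic acid without FABP4 it gave 0.052 for Sptlc1, 0.062 for Degs1, 0.028 for Sgms1, 0.039 for Ugcg and 0.17 for Asah1. For palmitic acid with FABP4 it gave -0.027 for Degs1 and -0.036 for Smpd1. For the interaction it gave -0.26 for Sptlc2, -0.089 for Degs1, -0.013 for Sgms1, -0.27 for Smpd1, -0.14 for Asah1 and -0.21 for Sgpl1. Normexp background correction gave in FABP4 without palmitic acid -0.011 for Kdsr and 0.0054 for Sgms1. FABP4 with palmitic acid then had 0.029 for Kdsr. Palmitic acid without FABP4 then had 0.022 for Asah1. The interaction then had -0.0045 for Sptlc2, 0.039 for Kdsr and -0.0093 for Smpd1. Quantile normalization gave in FABP4 without palmitic acid -0.013 for Kdsr. For FABP4 with palmitic acid it gave -0.012 for Sptlc1, 0.012 for Kdsr, -0.014 for Smpd1, -0.028 for Asah1 and -0.017 for Sgpl1. For palmitic acid without FABP4 it gave 0.023 for Asah1. For the interaction it gave -0.034 for Sptlc2, 0.025 for Kdsr, -0.048 for Smpd1 and -0.0030 for Sgpl1. The fixed slide block gave in FABP4 without palmitic acid 0.047 for Sptlc2, 0.10 for Degs1, 0.16 for Sgms1, 0.11 for Ugcg, -0.024 for Smpd1, 0.10 for Asah1, -0.068 for Sphk1 and 0.094 for Sgpl1. Palmitic acid without FABP4 then had 0.13 for Kdsr, 0.082 for Degs1, 0.18 for Sgms1, 0.14 for Ugcg and 0.34 for Asah1. The interaction then had -0.098 for Sptlc2, -0.10 for Asah1 and -0.066 for Sgpl1. The random slide block gave in FABP4 without palmitic acid 0.026 for Degs1, 0.030 for Sgms1, 0.0078 for Ugcg, -0.0028 for Smpd1, -0.020 for Sphk1 and 0.017 for Sgpl1. For palmitic acid without FABP4 it gave 0.14 for Asah1. For the interaction it gave -0.034 for Sptlc2. With each array left out, the values for FABP4 without palmitic acid ran for Kdsr from -0.079 to 0.22, Degs1 from -0.092 to 0.025, Sgms1 from -0.17 to 0.013, Ugcg from -0.16 to 0.011, Smpd1 from -0.025 to 0.035, Sphk1 from -0.017 to 0.055 and Sgpl1 from -0.10 to 0.010. With each array left out, the values for FABP4 with palmitic acid ran for Sptlc1 from -0.032 to 0.035, Sptlc2 from -0.15 to 0.022, Kdsr from -0.054 to 0.022, Smpd1 from -0.022 to 0.036 and Asah1 from -0.036 to 0.021. With each array left out, the values for palmitic acid without FABP4 ran for Asah1 from -0.017 to 0.0084. With each array left out, the values for the interaction ran for Sptlc2 from -0.087 to 0.083, Kdsr from -0.24 to 0.057, Ugcg from -0.15 to 0.020 and Smpd1 from -0.035 to 0.041.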
